A study of Homo sapiens with 11 samples.

Results

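The genes described here are CA9, CA12 and CA2, which encode carbonic anhydrases, SLC16A1 and SLC16A3, which encode lactate transporters, BSG, which encodes the chaperone of those transporters, and SLC4A7, which encodes a bicarbonate importer. They were named by gene symbol, with earlier results of these tumours known, and all 7 were found among the 28152 gene symbols of the count table. RNA sequencing covered 11 xenograft tumours. Their labels name BT-474, a breast cancer line of human origin with hormone receptors and Her2 according to those labels. The 6 vehicle tumours (replicates 001, 003, 004, 005, 006 and 007) and the 5 evexomostat tumours (replicates 002, 003, 004, 005 and 007) grew in the fourth mammary fat pad of female athymic nude mice, which lack T cells. All mice carried a 90-day slow-release pellet with 0.72 mg estradiol, so no group was without added estrogen. Cells were implanted in Matrigel, and tumours above 95 cubic millimetres were eligible. Evexomostat (SDX-7320), an inhibitor of the enzyme methionine aminopeptidase 2, was given subcutaneously at 12 mpk every 4 days, vehicle being mannitol in water, and all 11 libraries carry the label day 33. Age and genotype beyond the strain were not used here. Each library is a portion of 1 tumour, so fewer cells of a type and less RNA per cell cannot be told apart.

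Cells that rely on glycolysis make lactate and protons together. Lactate leaves with a proton through monocarboxylate transporters. Those encoded by SLC16A1 and SLC16A3 reach the cell surface with the help of basigin, the product of BSG. Carbonic anhydrases at the surface interconvert carbon dioxide with bicarbonate and protons, and bicarbonate importers carry bicarbonate back into the cell, which keeps the inside of the cell near neutral while the outside turns acid. CA9 is among the genes most strongly induced by low oxygen through hypoxia-inducible factor (HIF), and is used as a marker of hypoxic tumour regions. CA12 is typical of breast epithelium that responds to estrogen.

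The core letters of the HIF response element are ACGTG and GCGTG, and the promoters of the genes that differ most in their transcript levels below (CA9 and CA12) and of 2 genes of lactate export (SLC16A3 and BSG) are shown for these letters. Each sequence is the 250 bases before a transcription start in RefSeq (GRCh38.p14), 5′ to 3′ on the strand of the gene, with every match to ACGTG or GCGTG on either strand in capitals, where a match on the other strand reads CACGT or CACGC. The CA9 promoter is chr9:35673678-35673927 on the plus strand, and the CA12 promoter is chr15:63381847-63382096 on the minus strand. SLC16A3 has 5 starts in the table and BSG 2, and the start shown is the one with ACGTG matches, chr17:82228792-82229041 and chr19:572346-572595, both on the plus strand.
CA9: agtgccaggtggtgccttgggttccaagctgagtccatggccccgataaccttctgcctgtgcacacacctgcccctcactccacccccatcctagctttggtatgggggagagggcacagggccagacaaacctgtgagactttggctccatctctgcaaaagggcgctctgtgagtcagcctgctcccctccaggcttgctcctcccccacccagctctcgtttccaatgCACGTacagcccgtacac
CA12: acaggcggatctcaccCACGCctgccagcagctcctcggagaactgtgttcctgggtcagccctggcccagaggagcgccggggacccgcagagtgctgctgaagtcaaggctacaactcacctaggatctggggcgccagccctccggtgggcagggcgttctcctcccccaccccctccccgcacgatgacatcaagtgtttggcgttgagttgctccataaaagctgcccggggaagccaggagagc
SLC16A3: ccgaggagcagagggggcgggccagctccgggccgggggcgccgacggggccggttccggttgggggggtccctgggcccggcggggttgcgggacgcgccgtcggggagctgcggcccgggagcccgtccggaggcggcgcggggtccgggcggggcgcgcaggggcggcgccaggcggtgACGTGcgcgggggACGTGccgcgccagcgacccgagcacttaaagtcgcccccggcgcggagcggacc
BSG: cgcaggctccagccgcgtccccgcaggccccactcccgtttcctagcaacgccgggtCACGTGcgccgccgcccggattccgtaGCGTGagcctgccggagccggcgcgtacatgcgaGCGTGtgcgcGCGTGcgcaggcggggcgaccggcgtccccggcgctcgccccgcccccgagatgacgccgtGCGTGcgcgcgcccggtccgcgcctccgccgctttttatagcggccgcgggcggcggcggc

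CA9 had 1 match, an ACGTG on the other strand from -18 to -14, counted from the start site. CA12 had 1 GCGTG on the other strand, from -234 to -230. In SLC16A3 the 2 ACGTG matches lay from -68 to -64 and from -55 to -51. BSG had 6 matches, of which the 2 ACGTG matches overlap each other on opposite strands between -193 and -188, and the other 4 were GCGTG. A match of these short letters was common: 43.2% of the 35116 promoters of this length held at least 1, and 19.4% held 2 or more. For SLC4A7, the start at chr3:27484385-27484634 on the minus strand held 2 GCGTG matches and the other start held 0. The SLC16A3 starts not shown held 0, 0, 3 and 1 matches, and the BSG start not shown held 0. Of all 11 starts, which belong to 5 of the 7 genes, 7 held a match. CA2 and SLC16A1 had no start in this set. The starts shown for SLC16A3 and BSG were picked for their matches, so they cannot be set against the shares of all promoters. The matches are letters in a window and are not evidence of binding.

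Whole-library features were examined first. Totals were 23992505 to 39249329 counts under vehicle and 22808033 to 32093792 under evexomostat. A value of 3 counts equals 0.0764 to 0.132 RPM, depending on the library (reads relative to the library total), which covers counting error only. The labels do not state whether the tumours of a group came from separate experiments, so p-values measure the spread between these tumours. Vehicle replicate 001 stood apart: its 100 most abundant genes held 23.9% of counts, where the other 5 vehicle tumours had 16.2% to 17.6% and the evexomostat tumours 16.6% to 17.9%, and ribosomal protein genes held 14.5%, where those tumours had 4.89% to 7.10% and 7.16% to 8.76%. Results are therefore given with and without it where they differ. Skeletal muscle markers stood apart in evexomostat replicate 005, with a sum over 10 genes of 518.5 CPM (counts relative to the library total after TMM scaling), against 59.7 or less in every other library. Defining markers of the labelled line were weak or absent. ESR1, the estrogen receptor gene, was at 0.625 CPM or less in every library, PGR, the progesterone receptor gene, at 0.143 CPM or less, and the epithelial adhesion gene CDH1 at 1.34 CPM or less. ERBB2, which encodes Her2, was at 26.7 to 66.5 CPM, while KRT8, a keratin of simple epithelium, reached 167.3 to 561.8 CPM and the mesenchymal filament gene VIM 695.8 to 1685 CPM. How reads from mouse host cells were handled is not given in the sources used here.

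Per kilobase of transcript, the scale on which different genes can be compared, BSG was the most abundant of the 7 genes under vehicle, at 273.5 ± 32.4 CPM per kilobase (SD, n = 6). SLC16A1 followed at 48.0 ± 9.90, then SLC16A3 at 27.2 ± 13.1, CA12 at 23.7 ± 24.9 and CA9 at 17.0 ± 17.5 CPM per kilobase. SLC4A7 at 5.87 ± 0.711 and CA2 at 3.06 ± 0.393 CPM per kilobase were the lowest. The neighbours SLC16A3, CA12 and CA9 lay within one another's spread. Under evexomostat the order of the mean levels had CA9 last, at 1.16 ± 1.02 CPM per kilobase (SD, n = 5), below CA2 at 2.81 ± 0.406, with CA12 at 6.00 ± 2.48 beside SLC4A7 at 6.28 ± 1.37. These lengths are those of the longest coding transcript, so a gene that uses a shorter one is understated.

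**Figure D1:**
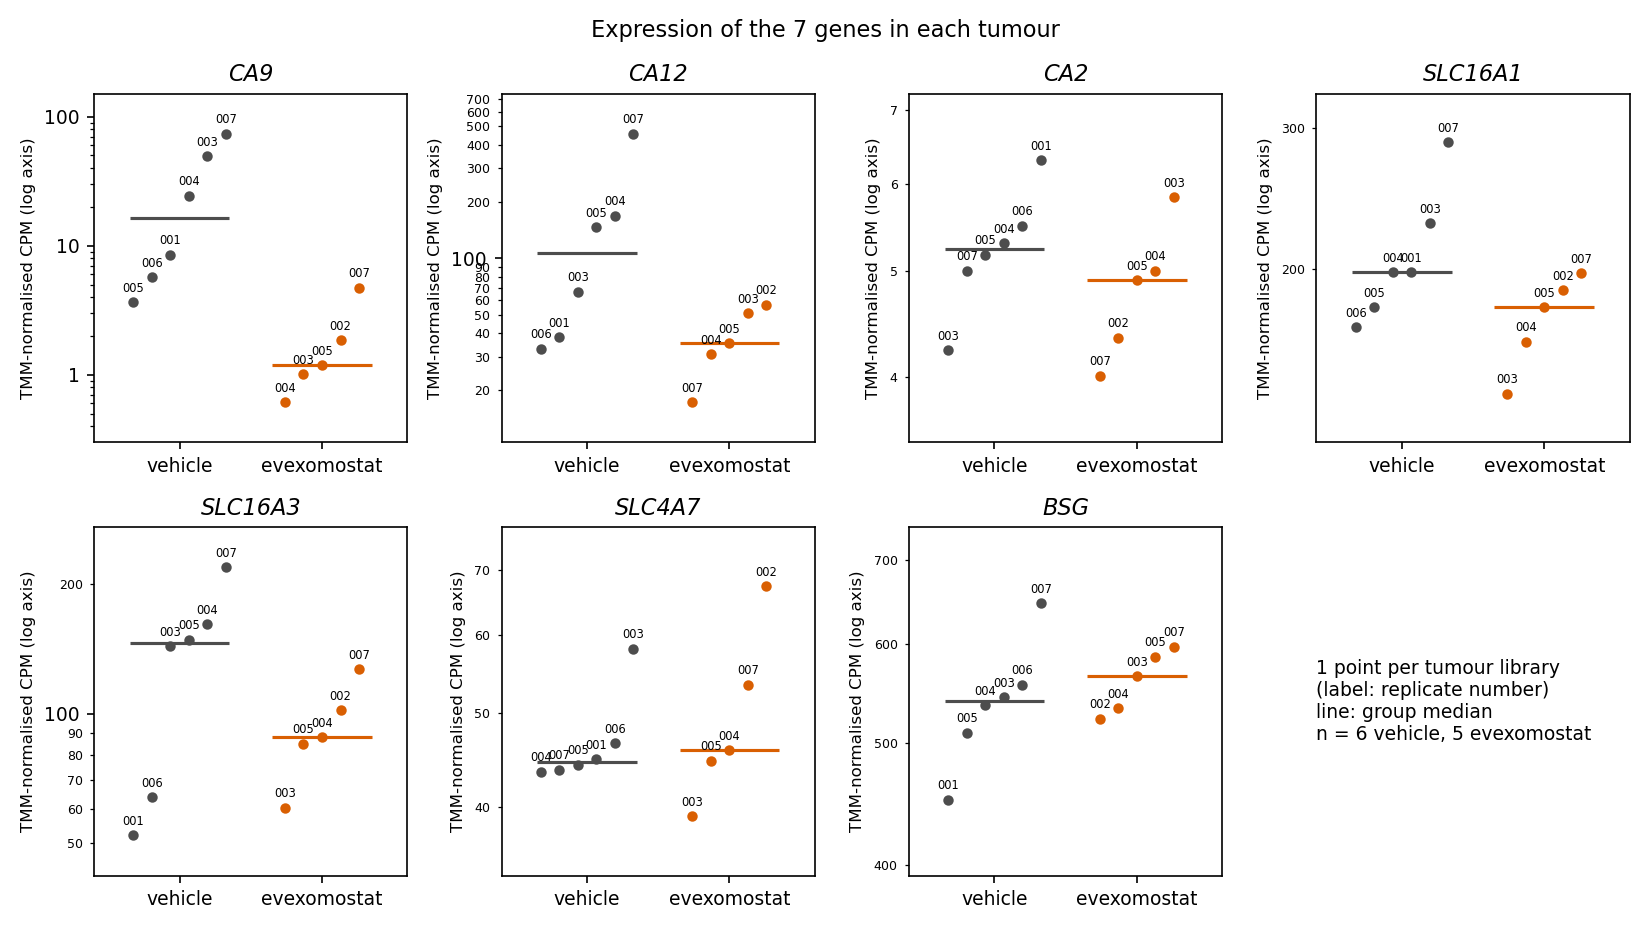
Transcript level (TMM-normalised CPM, log axis with its own range in each panel) of the 7 genes in each of the 6 vehicle (grey) and 5 evexomostat (orange) tumours, with replicate numbers as labels and a line at each group's median. CA9 ran from 3.66 to 73.7 CPM under vehicle and from 0.616 to 4.73 under evexomostat, while BSG stayed between 450.8 and 646.8 CPM in all 11 libraries.

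In edgeR's quasi-likelihood test over 16653 genes, 0 of the 7 genes passed an adjusted p of 0.05, where 0.606% of all tested genes did (0.174% higher and 0.432% lower, 101 genes in all). By unadjusted p, 2 of the 7 were under 0.05, CA9 and CA12, both with lower levels under evexomostat, beside 13.4% of all tested genes (8.55% lower, 4.82% higher). DESeq2 called 1 of the 7, CA9, where it called 3.92% of all genes (2.71% lower). With limma-voom 0 of the 7 passed, beside 0.534% of all genes (0.342% lower). With sample quality weights in limma-voom CA9 and CA12 passed, beside 6.36% of all genes (4.05% lower). None of the 7 had vehicle and evexomostat levels that did not overlap, against 2.97% of all tested genes. The median log2 fold change (evexomostat over vehicle) of the 7 was -0.28, beside -0.04 for all tested genes, with 2 estimates above 0 and 5 below. In the authors' deposited table, 2 of the 7 genes were under an adjusted p of 0.05, CA9 and CA12, beside 0.952% of all its genes.

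CA9, the membrane-bound carbonic anhydrase induced by low oxygen, was far lower in most evexomostat tumours than in most vehicle tumours. Under vehicle its lowest, median and highest levels were 3.66, 16.4 and 73.7 CPM, from 136 to 2005 counts. Under evexomostat the levels were 1.86, 1.01, 0.616, 1.19 and 4.73 CPM in replicates 002, 003, 004, 005 and 007, from 17 to 152 counts. The groups overlapped in 1 place only: evexomostat replicate 007 lay above vehicle replicate 005, the lowest of its group, and the other 4 evexomostat tumours lay below every vehicle tumour. Group means were 27.5 ± 28.4 CPM (SD, n = 6) and 1.88 ± 1.65 (SD, n = 5), a 14.6-fold difference between means. The log2 fold change was -3.86 (SE 0.84, 95% interval -5.67 to -2.04), with an edgeR adjusted p of 0.0663.

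Ordered by log2 fold change from the lowest, CA9 ranked 3 of 16653 tested genes, and by p it ranked 124. Its spread was wide among untreated tumours: the highest vehicle level was 20.1 times the lowest, and 99.4% of tested genes had a smaller SD of log2 CPM under vehicle than the 1.75 of CA9. The gene passed the threshold without vehicle replicate 001 (log2 fold change -4.03, edgeR adjusted p 0.0233, where 5.22% of all tested genes passed and 3.24% passed as lower) and without vehicle replicate 005 (-4.09, 0.0475, where 0.339% passed as lower). Without evexomostat replicate 005, the muscle-rich library, it was -3.73 (0.173). In the authors' deposited table the log2 fold change of CA9 is -3.79 with an adjusted p of 1.09e-04. Of the exon bases of CA9 in GENCODE 29 (GRCh38), 38.5% are also exon of ARHGEF39 on the opposite strand, and whether counting used strand is not given in the sources used here. ARHGEF39 averaged 19.4 ± 4.64 CPM in vehicle tumours (SD, n = 6) and 25.4 ± 1.89 CPM in evexomostat tumours (SD, n = 5; log2 fold change 0.39, SE 0.17, edgeR adjusted p 0.332), so its estimate lay on the other side of 0 from that of CA9.

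CA12, the second membrane-bound carbonic anhydrase, had lower levels under evexomostat on average, but its groups overlapped more. Vehicle levels had a lowest, median and highest value of 33.3, 106.6 and 457.5 CPM. The evexomostat levels were 56.9, 51.2, 31.2, 35.6 and 17.4 CPM in replicates 002, 003, 004, 005 and 007. Vehicle replicates 006 and 001 lay inside the evexomostat range, the other 4 vehicle tumours above it. Means were 151.7 ± 159.9 CPM (SD, n = 6) and 38.5 ± 15.9 (SD, n = 5), and the log2 fold change was -1.98 (SE 0.62, 95% interval -3.32 to -0.64, edgeR adjusted p 0.180). Vehicle replicate 007 carried much of that difference: leaving it out gave -1.24 (edgeR adjusted p 0.310). Without vehicle replicate 001 the value was -2.17 (edgeR adjusted p 0.0523), which does not pass. In the authors' deposited table CA12 has a log2 fold change of -1.88 and an adjusted p of 0.0416.

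CA2, the abundant cytosolic carbonic anhydrase of many tissues, was low and even. It ran from 4.23 through a median of 5.23 to 6.30 CPM under vehicle, and was at 4.34, 5.83, 5.00, 4.90 and 4.01 CPM in evexomostat replicates 002, 003, 004, 005 and 007. All but 1 of the evexomostat levels lay inside the vehicle range. The log2 fold change was -0.12 (SE 0.17, 95% interval -0.49 to 0.24, edgeR adjusted p 0.824). The interval for CA2 does not reach the estimates for CA9 and CA12.

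The ratio of CA9 to CA12 within a library does not depend on scaling. Its log2 value, with 0.5 added to both counts, averaged -2.65 ± 1.57 in vehicle tumours (SD, n = 6) and -4.59 ± 1.56 in evexomostat tumours (SD, n = 5), a difference of -1.94 (exact two-sided permutation p 0.0758, 0.152 adjusted over 2 ratios, where the smallest possible p is 0.00216). The 2 genes did not follow one order across tumours. Evexomostat replicate 007 had the highest CA9 and the lowest CA12 of its group, and vehicle replicate 005 had the lowest CA9 of its group beside 146.5 CPM of CA12.

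SLC16A3 encodes MCT4, the lactate exporter of glycolytic cells and itself a HIF target. Its lowest, median and highest vehicle levels were 52.1, 146.2 and 219.1 CPM, and the evexomostat levels were 101.9, 60.5, 88.2, 85.2 and 126.9 CPM in replicates 002, 003, 004, 005 and 007. Every evexomostat tumour lay below the vehicle median, and every one also lay above vehicle replicate 001, the lowest of all. The log2 fold change was -0.51 (SE 0.33, 95% interval -1.22 to 0.21, edgeR adjusted p 0.564), -0.67 (0.162) without vehicle replicate 001 and -0.30 (0.774) without vehicle replicate 007. A share of 5.36% of its exon bases is also exon of CSNK1D on the opposite strand, a gene at 116.2 ± 20.7 CPM (SD, n = 6) and 120.9 ± 5.26 (SD, n = 5).

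SLC16A1 encodes MCT1, which carries lactate in either direction. It was at 169.0, 197.9 and 288.1 CPM (lowest, median, highest) under vehicle and at 187.9, 139.5, 162.0, 179.1 and 197.4 CPM in evexomostat replicates 002, 003, 004, 005 and 007. All 5 evexomostat levels were below the vehicle median, and 2 were below the lowest vehicle tumour. The log2 fold change was -0.28 (SE 0.16, 95% interval -0.61 to 0.06, edgeR adjusted p 0.475), and -0.17 (0.700) without vehicle replicate 007. The log2 ratio of SLC16A3 to SLC16A1 averaged -0.83 ± 0.69 in vehicle tumours (SD, n = 6) and -0.93 ± 0.22 in evexomostat tumours (SD, n = 5), a difference of -0.11 (exact two-sided permutation p 0.740, also 0.740 adjusted over 2 ratios).

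BSG, whose protein escorts MCT1 and MCT4 to the membrane, varied little between tumours. Vehicle levels had a lowest, median and highest value of 450.8, 540.1 and 646.8 CPM. Evexomostat levels were 523.0, 565.7, 533.2, 586.0 and 596.9 CPM in replicates 002, 003, 004, 005 and 007, all inside the vehicle range. The log2 fold change was 0.05 (SE 0.12, 95% interval -0.21 to 0.32, edgeR adjusted p 0.906). Its SD of log2 CPM was 0.17 under vehicle and 0.08 under evexomostat, beside medians of 0.42 and 0.23 over all tested genes.

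SLC4A7 encodes NBCn1, a sodium bicarbonate cotransporter that brings bicarbonate into breast cancer cells. Vehicle levels were 43.5, 44.5 and 58.2 CPM (lowest, median, highest), with all but replicate 003 at 46.5 CPM or less. Evexomostat levels were 67.4, 39.1, 45.8, 44.6 and 53.4 CPM in replicates 002, 003, 004, 005 and 007, a range that reached both below and above the vehicle tumours. The log2 fold change was 0.10 (SE 0.15, 95% interval -0.22 to 0.42, edgeR adjusted p 0.846). The sign rests on evexomostat replicate 002, without which the value was -0.0341.

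**Figure D2:**
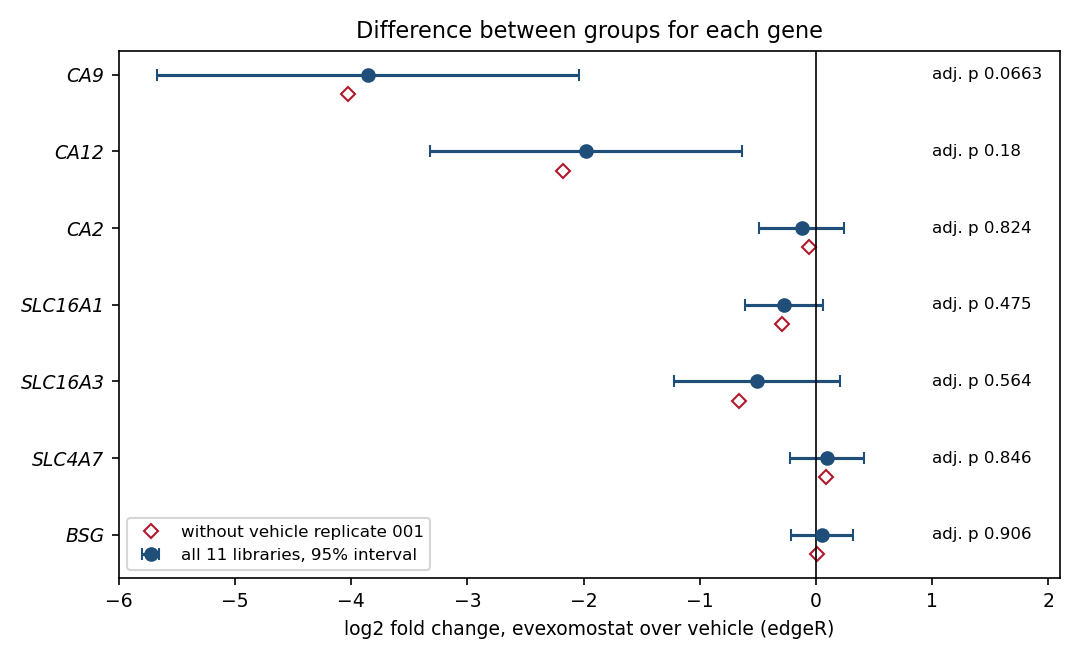
Log2 fold change of each of the 7 genes (evexomostat over vehicle; circles, all 11 libraries with the 95% interval; diamonds, without vehicle replicate 001), with the edgeR adjusted p for all 11 libraries at the right. The intervals of CA9 (-5.67 to -2.04) and CA12 (-3.32 to -0.64) lie below 0, and those of the other 5 genes include 0.

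Among the 6 vehicle tumours, the level of CA9 was compared with that of each of the other 6 genes on the log2 scale. SLC16A1 was closest to it (Pearson r 0.89, exact permutation p 0.00833, n = 6, and 0.050 after adjustment over the 6 relations, which does not pass). Its Spearman rho was 0.886 (exact permutation p 0.0333, adjusted 0.200). Without vehicle replicates 007 and 005, the libraries farthest from the CA9 median, r was 0.89, over 4 tumours. For SLC16A3, CA12, BSG and SLC4A7 r was 0.61, 0.54, 0.63 and 0.33, and for CA2 it was -0.57, with adjusted exact permutation p of 0.308 to 0.650 and rho of -0.543 to 0.543 (adjusted 0.427 to 0.803). None of these relations passed the threshold after adjustment. Without the same 2 libraries r was 0.88 for SLC16A3, 0.67 for CA12, 0.64 for SLC4A7, 0.30 for BSG and -0.82 for CA2.

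The genes with the profile most like that of CA9 over the 11 libraries were BNIP3L (r 0.95), P4HA1 (0.94) and ZBTB43 (0.93). BNIP3L encodes a receptor for the removal of mitochondria, and P4HA1 a subunit of the enzyme that hydroxylates collagen. Within the 6 vehicle libraries alone, r was 0.91, 0.97 and 0.91. For CA12 they were RAP2A (0.95), INHBB (0.94) and RAB8B (0.94), and for SLC16A1 LARP4 (0.95), SEC24A (0.94) and ADAM9 (0.92). These genes were picked as the 3 highest of all tested genes, so the values describe the libraries and carry no test. All 11 points share the difference between groups, the scaling and the depth of each library.

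**Figure D3:**
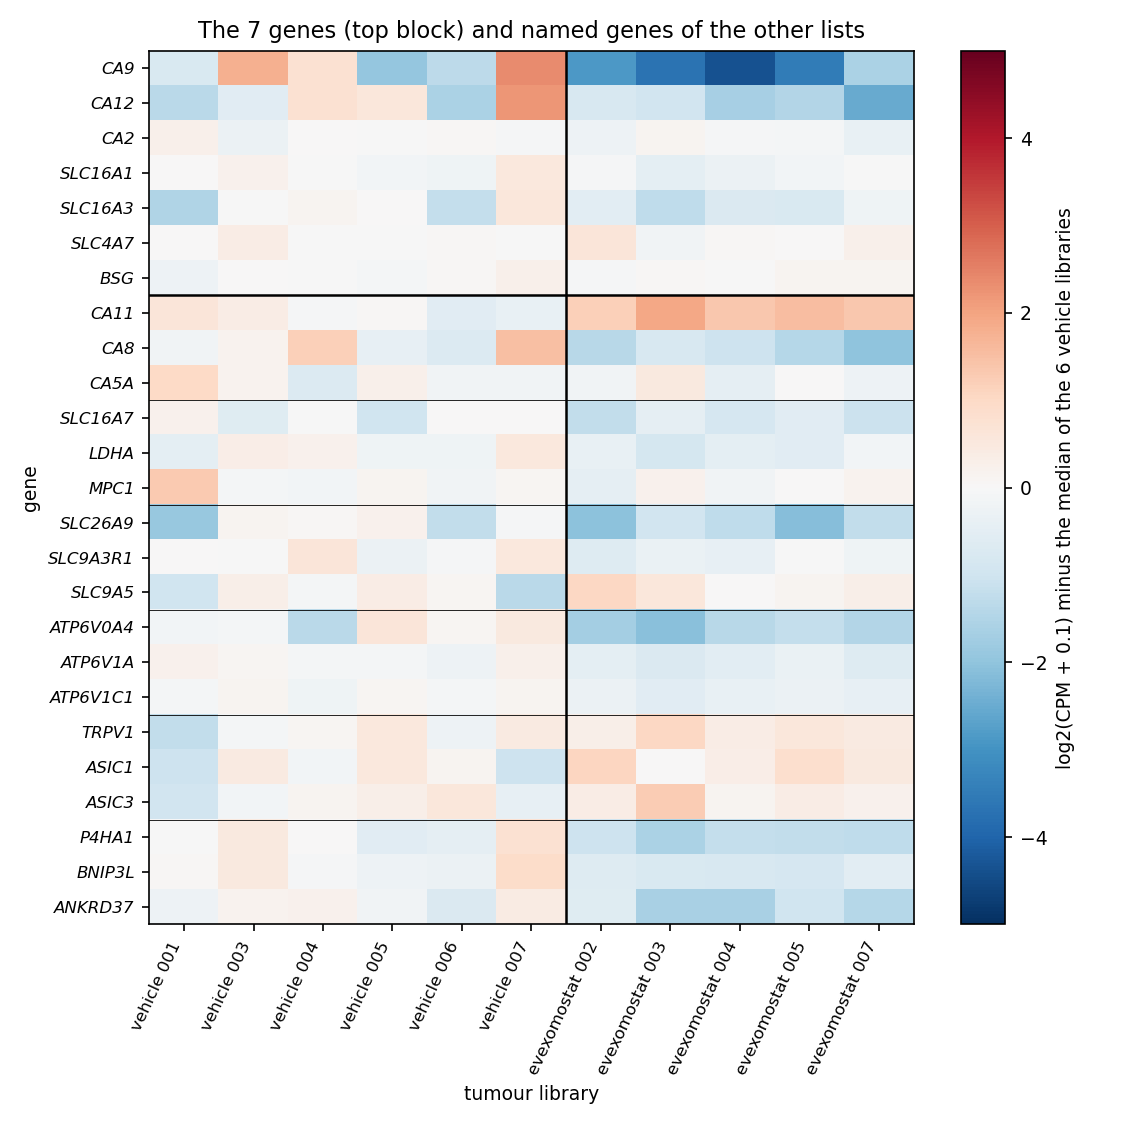
Level of the 7 genes (top block) and of the named genes of the related lists (lower blocks) in each library, as log2(CPM + 0.1) minus the median of the 6 vehicle libraries (red, higher; blue, lower). CA9 and CA12 are highest in vehicle replicate 007, at 73.7 and 457.5 CPM, and CA11 is above the vehicle median in all 5 evexomostat libraries.

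In the related lists that follow, counts are read against the shares of all genes given above: for edgeR 0.606% called and 13.4% at an unadjusted p under 0.05, for DESeq2 3.92% and for quality weights 6.36% called. The other carbonic anhydrases had estimates in both directions. Of 12 genes, 5 passed the count filter, with 1 higher, 0 lower and a median log2 fold change of -0.09. CA11, a relative without the catalytic activity of the family, rose. Its mean was 0.730 ± 0.255 CPM in vehicle tumours (SD, n = 6) and 2.13 ± 0.474 CPM in evexomostat tumours (SD, n = 5), and on the log2 scale the difference was 1.54 (SE 0.27, edgeR adjusted p 0.0301). The evexomostat levels of CA11 were 1.71, 2.92, 1.92, 2.19 and 1.90 CPM in replicates 002, 003, 004, 005 and 007, all above the vehicle range of 0.437 to 1.12 CPM. Counts were low, 14 to 36 under vehicle and 53 to 72 under evexomostat. The call was lost when vehicle replicate 004, vehicle replicate 007 or any 1 evexomostat library was left out (0.0940 without evexomostat replicate 005). CA8, another relative without catalytic activity, was at 10.4 ± 6.83 CPM (SD, n = 6) and 2.95 ± 0.897 (SD, n = 5), with groups that did not overlap (log2 fold change -1.82, SE 0.42, edgeR adjusted p 0.0705), and passed without vehicle replicate 001 (0.0289). In the authors' deposited table the adjusted p is 1.97e-04 for CA11 and 0.00688 for CA8. CA5A, a mitochondrial form, had a log2 fold change of -0.23 (edgeR adjusted p 0.858). CA1, CA3, CA4, CA5B, CA6, CA7 and CA10 were not tested, with at most 4 counts in any library.

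Genes of lactate and pyruvate handling had 0 calls in 8 tested of 12, with 2 at an unadjusted p under 0.05, both lower (8.55% of all tested genes were lower at that p), and a median log2 fold change of -0.18. DESeq2 and limma-voom with quality weights also gave 0. LDHA, the lactate dehydrogenase subunit of glycolytic cells, was at 902.1 ± 244.6 CPM (SD, n = 6) and 618.6 ± 114.5 (SD, n = 5) (log2 fold change -0.54, SE 0.20, edgeR adjusted p 0.258). SLC16A7, the high-affinity transporter MCT2, was at 26.5 ± 7.60 and 17.1 ± 3.91 CPM (-0.63, SE 0.23, 0.241). The third gene by p was MPC1, a subunit of the mitochondrial pyruvate carrier, at -0.32 (0.662), a value set by vehicle replicate 001, without which it was 0.01.

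Bicarbonate and proton exchangers had 0 calls in 23 tested of 28, with 2 at an unadjusted p under 0.05, both lower (8.55% of all tested genes), and a median of -0.00. DESeq2 gave 0 calls and limma-voom with quality weights 1. SLC26A9, a chloride channel and exchanger, was at 1.11 ± 0.554 and 0.433 ± 0.184 CPM (log2 fold change -1.38, edgeR adjusted p 0.194), the adaptor gene SLC9A3R1 had a value of -0.48 (0.259) and SLC9A5 one of 0.63 (0.415). Without vehicle replicate 001, SLC26A9 passed (-1.56, 0.0346).

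The vacuolar ATPase pumps protons out of the cytosol into acid organelles and, in some cells, out of the cell. Of 25 subunit genes 22 were tested, with 0 calls, 7 at an unadjusted p under 0.05 (1 higher and 6 lower, beside 4.82% and 8.55% of all tested genes) and a median of -0.25. DESeq2 called 3 of them and limma-voom with quality weights 4, all lower, beside 2.71% and 4.05% of all genes. ATP6V0A4, a membrane subunit, was at 1.06 ± 0.445 CPM (SD, n = 6) and 0.289 ± 0.0886 (SD, n = 5) (log2 fold change -1.85, SE 0.39, edgeR adjusted p 0.0539). Its adjusted p in the authors' deposited table is 0.0103. ATP6V1A, the catalytic subunit, was at 116.7 ± 15.6 and 78.5 ± 8.11 CPM, with all evexomostat tumours below all vehicle tumours (-0.57, SE 0.13, 0.0665), and ATP6V1C1 at 79.2 ± 8.38 and 61.0 ± 4.44 CPM, also without overlap (-0.38, SE 0.11, 0.152). Without vehicle replicate 001, 4 subunit genes passed, all lower, where 3.24% of all tested genes did: these 3, with edgeR adjusted p of 0.0253, 0.0233 and 0.0406, and ATP6V0A1 (0.0323), which was named after its values were seen.

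Acid-sensing receptors had 0 calls in 5 tested of 7 and 0 at an unadjusted p under 0.05, with 0 calls in DESeq2 and in limma-voom with quality weights. The median log2 fold change was 0.54, with 4 estimates above 0 and 1 below. The ion channel genes TRPV1, ASIC1 and ASIC3 had values of 0.56, 0.66 and 0.54 (edgeR adjusted p 0.388, 0.410 and 0.441).

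**Figure D4:**
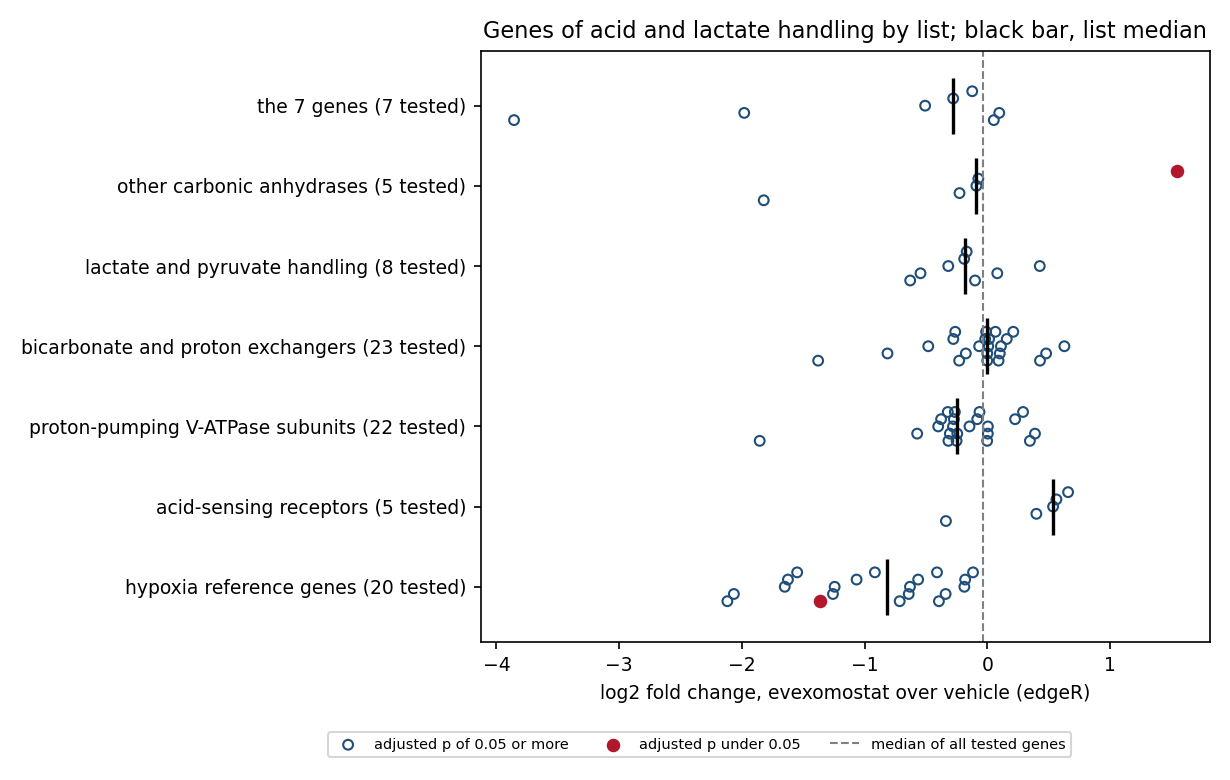
Log2 fold change (evexomostat over vehicle) of every tested gene in each list, 1 circle per gene, filled where the edgeR adjusted p was under 0.05, with a black bar at the list's median and a dashed line at the median of all tested genes (-0.04). CA11 at 1.54 and P4HA1 at -1.37 are the 2 filled points, and all 20 hypoxia genes lie below 0.

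A list of 20 hypoxia reference genes other than the 7 was read beside CA9. All 20 had estimates below 0, with a median log2 fold change of -0.81, and 1 passed the test, lower (0.432% of all tested genes did). At an unadjusted p under 0.05, 13 were lower and 0 higher, beside 8.55% and 4.82% of all tested genes. P4HA1 fell, with means of 128.1 ± 46.9 CPM in vehicle tumours (SD, n = 6) and 49.7 ± 6.19 CPM in evexomostat tumours (SD, n = 5) and no overlap (log2 fold change -1.37, SE 0.23, edgeR adjusted p 0.0233). Its call was lost without any 1 evexomostat library (0.0800 without replicate 005). BNIP3L had a value of -0.92 (0.0703), and ANKRD37, an ankyrin repeat gene induced by HIF, one of -1.26 (0.0768). Without vehicle replicate 001, 10 of the 20 passed, all lower, where 3.24% of all tested genes did. The list was chosen with results of these tumours known, so its direction is not independent evidence.

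The vehicle tumours also differed among themselves in the hypoxia genes. Vehicle replicate 007, which had the highest CA9, CA12, SLC16A1, SLC16A3 and BSG of its group, was the highest vehicle library for 16 of the 20 genes and among the highest 2 for 19. Vehicle replicate 003, second in CA9, was the highest for 3 and among the highest 2 for 16. The mean log2 CPM of the 20 genes was 7.39 in vehicle replicate 007, 6.94 in 003, 6.52 in 004, 6.04 in 005, 5.78 in 006 and 5.58 in 001, and 5.29 to 5.99 under evexomostat. The mean of vehicle replicates 001 and 006 thus lay within the evexomostat range, as their CA12 did, while their CA9 levels of 8.48 and 5.68 CPM lay above every evexomostat tumour. Whether oxygen supply differed between the tumours was not tested.

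Markers of other cell types were set beside these results. Sums over the lists were 2320 to 4596 CPM under vehicle and 2243 to 3292 under evexomostat for mesenchymal genes, 343.8 to 791.3 and 475.5 to 600.8 for luminal genes, 36.1 to 74.3 and 45.7 to 60.0 for macrophage genes, and 10.5 to 22.4 and 9.92 to 14.0 for endothelial genes. Of the 6 mesenchymal genes 2 had estimates above 0 and 4 below, and 0 passed. FN1, which encodes fibronectin and was named after its values were seen, was at 232.1 to 1485 CPM under vehicle and 98.8 to 203.7 CPM under evexomostat (log2 fold change -2.18, edgeR adjusted p 0.0503). FN1 passed without vehicle replicate 001 (-2.33, 0.0132), the only mesenchymal gene that did. AXL, a receptor kinase gene named in the same way, had a value of 0.72 (0.191). Adipocyte genes summed to 7.73 to 19.1 and 8.32 to 16.0 CPM, with ADIPOQ at 0 counts in every library. Red blood cell genes, which matter here because red cells are rich in carbonic anhydrases and carry a bicarbonate exchanger, had at most 8 counts per gene and library. In the muscle list 7 of 7 tested genes had higher estimates under evexomostat (median log2 fold change 3.48) and 0 passed. By unadjusted edgeR p under 0.05, 6 were higher and 0 lower, beside 4.82% and 8.55% of all tested genes. Much of this came from evexomostat replicate 005. Without it the 7 log2 fold changes were 0.47 to 1.87. Only ATP2A1, named after its values were seen, then had an unadjusted edgeR p under 0.05 (0.00648, adjusted 0.246). Sums of the muscle list were 4.21 to 22.5 CPM under vehicle and 6.05 to 518.5 CPM under evexomostat. The part of these cells in the values of the 7 genes was not tested, and without the muscle-rich library the log2 fold changes of CA9 and CA12 were -3.73 and -1.95.

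**Figure D5:**
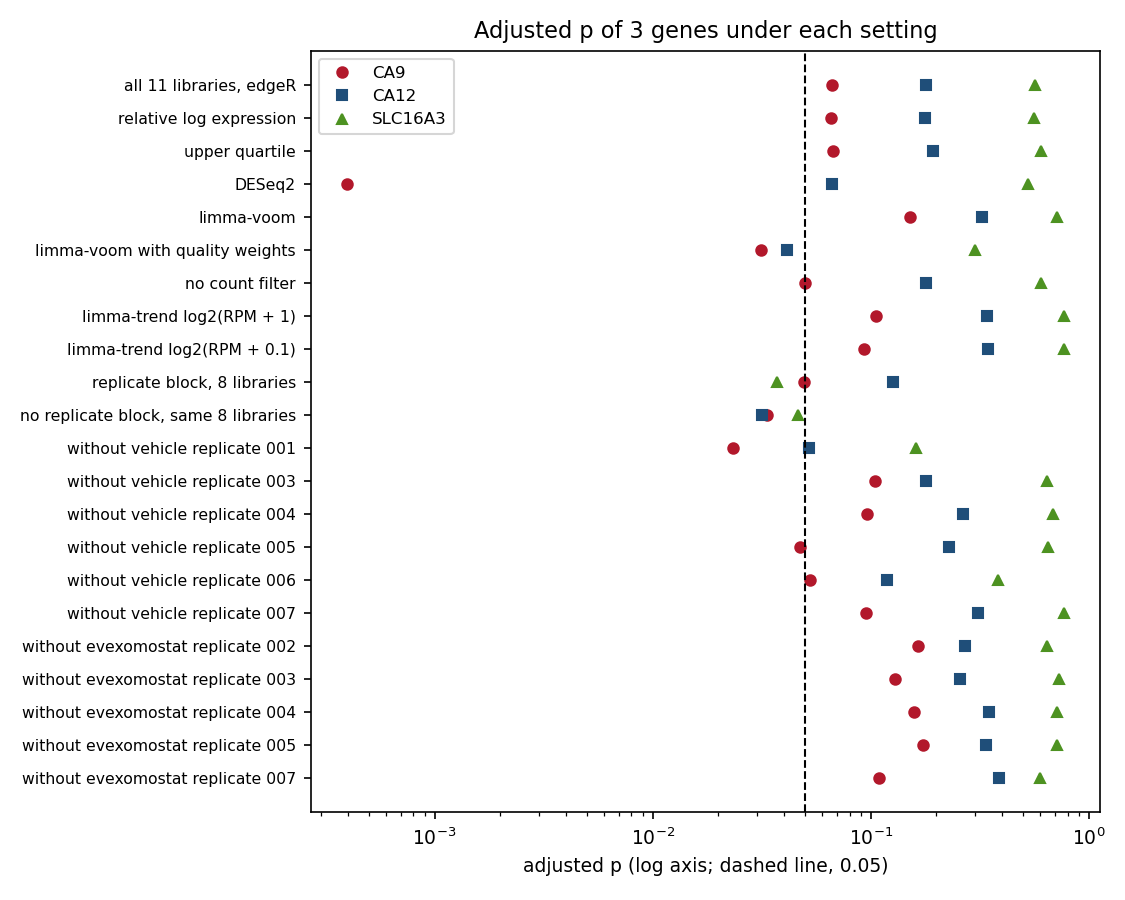
Adjusted p of CA9, CA12 and SLC16A3 under each setting (log axis; dashed line at 0.05), 1 row per setting with all 11 libraries in edgeR at the top. CA9 lies under 0.05 in 7 of the 21 alternatives, CA12 in 2 and SLC16A3 in 2, the lowest CA9 value being 3.95e-04 with DESeq2.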

How the data were processed

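Per the submitters' processing notes, the authors used bcl2fastq 2.17, STAR 2.7.5c, featureCounts and edgeR with build GRCh37 (hg19). Annotation, strandedness of counting and treatment of mouse reads are not given in the sources used here. The deposited count table holds read counts per gene symbol. The deposited RPM table matched counts divided by their column totals (largest difference 2.3e-13) and was used for 2 alternatives. The authors' deposited comparison table gives log2 fold changes, p-values and adjusted p-values, and group means in RPM.

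Levels are TMM-normalised CPM. Of 28152 symbols, 16653 passed filterByExpr (minimum count 10, minimum total 15). They were tested in edgeR 4.0.16 (R 4.3.3) by the quasi-likelihood F-test (6 vehicle against 5 evexomostat libraries, no covariates), with Benjamini-Hochberg adjustment over all tested genes and a threshold of 0.05. Standard errors were derived from the F statistic. Profiles were compared on log2 CPM with a prior count of 2. The fits were tested on simulated data.

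The 7 genes and all lists were chosen with earlier results of these data known. Named genes are the 7 and, from each related list, genes past the threshold or among the 3 with the smallest p. Also named are the 3 genes most correlated with each of CA9, CA12 and SLC16A1. Those of the other 4 genes, and some single genes of the lists, are not reported here. Alternatives were other scalings, DESeq2 1.42.0, limma 3.58.1 (voom, quality weights, RPM), no filter, a replicate block and leaving out each library. No 2 libraries were duplicates (chi-square per degree of freedom at least 15.5 in 55 pairs). The 250-base promoters and the exon overlaps come from GRCh38, and no coordinates were converted.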

Additional observations from a re-analysis of the deposited data

Results flagged for a closer look

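Of 36 highest and lowest values examined for the 7 genes and 2 ratios, 3 stood apart from the rest of their group. The criterion, the gap to the nearest value over the range, is met by chance in about 1 in 20 groups of normally distributed values. With several groups examined, some values can meet it by chance alone. Gene levels were examined as CPM, where high values lie farther apart than on the log2 scale. CA12 in vehicle replicate 007 was at 457.5 CPM, against 33.3 to 168.2 CPM in the other vehicle tumours. SLC4A7 in vehicle replicate 003 was at 58.2 CPM, against 43.5 to 46.5 CPM in the others. The log2 ratio of CA9 to CA12 in evexomostat replicate 007 was -1.87, against -5.63 to -4.88 in the other evexomostat tumours, and that tumour had both the highest CA9 (4.73 CPM) and the lowest CA12 (17.4 CPM) of its group.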

How the results depend on the processing

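For the changes given here the cause was not tested. The total of 101 genes (29 higher, 72 lower) became 649 with DESeq2, 1059 with limma-voom and quality weights, 733 without a replicate block on the 8 libraries with shared numbers and 107 with it, and 1 to 865 when single libraries were left out (865 without vehicle replicate 001, 1 without evexomostat replicate 005). The split was 28 higher and 42 lower with upper quartile scaling, and 43 and 31 or 38 and 30 on RPM, where the median of all genes was 0.075 or 0.098 instead of -0.04. On RPM the values were -2.68 and -3.25 for CA9, -1.37 and -1.39 for CA12, and 0.16 and 0.16 for BSG.

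Of the 7 genes, 1 passed with DESeq2, 2 with quality weights, 1 with no count filter, 2 with the replicate block, 3 without the block on the same libraries and 0 to 1 when single libraries were left out. Beside these, 3.92% of all genes passed with DESeq2 and 6.36% with quality weights. With no count filter 106 of 24459 genes passed, with the block 107 of 16588 and without it 733 of 16588. CA9 passed at -3.87 with DESeq2 (adjusted p 3.95e-04), -3.28 with quality weights (0.0314), -3.84 with no count filter (0.0499), -4.14 with the replicate block (0.0495) and -4.30 without it (0.0334). Leaving out single libraries gave -4.54 to -3.27, past the threshold without vehicle replicate 001 or 005. CA12 passed at -1.76 with quality weights (0.0413) and -2.64 without the block (0.0318), and left-out libraries gave -2.19 to -1.24. Without single libraries SLC16A3 ran from -0.67 to -0.30 and SLC16A1 from -0.33 to -0.17. SLC16A3 passed at -0.93 with the block (0.0370) and -0.90 without it (0.0466). SLC4A7 reversed, without passing, to -0.0545 with the block, -0.058 without it and -0.0341 without evexomostat replicate 002 (with single libraries left out, up to 0.17). The ratio of SLC16A3 to SLC16A1 reversed to 0.0022 without vehicle replicate 005, in a range of -0.33 to 0.0022. CA2, SLC16A1 and BSG kept their sign and did not pass in any of the 21 alternatives.

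The lists gave, with DESeq2, quality weights, the block and no block, 2, 2, 1 and 2 calls for other carbonic anhydrases (left-out libraries 0 to 2), 0, 1, 0 and 2 for exchangers (0 to 2), 3, 4, 0 and 3 for the vacuolar ATPase (0 to 4) and 8, 11, 6 and 12 for hypoxia genes (0 to 10). Over all genes these settings called 3.92%, 6.36%, 107 of 16588 and 733 of 16588. For replicates 003, 004, 005 and 007, the deviations of same-numbered libraries from their group means were compared over all tested genes. They correlated at -0.27, 0.07, 0.05 and -0.10. These values gave no sign that the numbers pair the tumours, which so few values cannot exclude. Low depth bears on CA11, at 14 to 72 counts, and on the untested carbonic anhydrases, at 4 counts or fewer. It also bears on CA9 under evexomostat, at 17 to 152 counts. ATP6V0A4 had 12 to 59 counts under vehicle and 4 to 12 under evexomostat, and SLC26A9 had 6 to 59 and 7 to 17.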
